A study of Mus musculus with 27 samples.

Results

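The genes described here encode the contractile apparatus of smooth muscle and its regulators: Acta2, Actg2, Myh11, Mylk, Cnn1, Tagln, Smtn, Lmod1 and Myocd. They were chosen by gene symbol, as every probe other than a control spot whose name on the array was 1 of these symbols, which gave 17 of 41174 probes and 9 of 28146 genes. Expression was measured in mouse esophagus on 27 Agilent arrays in 2 colours, 3 for each of 9 groups, with every array holding RNA of 1 biological replicate. Wild-type C57BL/6J mice gave whole esophagi at embryonic days 11.5 and 15.5 (E11.5, E15.5), at birth (P0) and at postnatal day 7 (P7). Nrf2-/-, Keap1-/- and Nrf2-/-Keap1-/- mice on the C57BL/6J background gave whole esophagi at P7. At 8 weeks of age, called adult here, wild-type and Nrf2-/- mice gave esophageal epithelium. The null alleles were carried by every cell of the animal, muscle and epithelium alike, and Keap1-/- mice die in the first weeks of life with hyperkeratosis of the esophagus. Cy5 marked the esophageal RNA and Cy3 a reference RNA pooled from 11 mouse cell lines, and the dyes were not exchanged. A level in this text is the log2 ratio of Cy5 to Cy3, so that 0 means the same signal as the reference. It compares samples for 1 gene and is not an abundance that can be set against another gene.

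Smooth muscle contracts when calcium activates myosin light chain kinase (Mylk), which phosphorylates the light chain of smooth muscle myosin (heavy chain Myh11) so that it pulls on filaments of smooth muscle actin (Acta2, Actg2). Most genes of this apparatus are transcribed by serum response factor bound to CArG boxes in their promoters, and myocardin (Myocd) is its cofactor. In the mouse esophagus the outer muscle coat begins as smooth muscle and is largely replaced by striated muscle around birth, whereas the muscularis mucosae below the epithelium and the walls of vessels stay smooth muscle. Nrf2 is a transcription factor of the oxidative stress response, and Keap1 is the protein that holds it back.

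The promoter of Acta2 is shown because, of the 5 promoters of these genes in the sequence table, it was the 1 that held CArG boxes. It is RefSeq sequence of GRCm38.p6 at chr19:34255324-34255623 on the minus strand, from 250 bases before the start of transcription to 50 bases after it. Capitals mark CArG boxes, read here with at most 1 G or C in the core of A and T. The motif reads as a CArG box on either strand.
Acta2: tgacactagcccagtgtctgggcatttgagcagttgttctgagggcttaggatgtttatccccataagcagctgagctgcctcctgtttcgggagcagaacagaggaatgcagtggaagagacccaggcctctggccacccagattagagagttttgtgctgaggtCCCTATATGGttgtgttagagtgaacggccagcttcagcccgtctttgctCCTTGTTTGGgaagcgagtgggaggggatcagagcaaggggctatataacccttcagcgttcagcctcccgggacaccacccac
The boxes lay 84 to 75 and 34 to 25 bases before the start. Among all 32851 promoters of this length in the table, 3280 (9.98%) held at least 1 such box, and 535 (1.63%) held a box with a core of A and T alone, which the Acta2 window did not. The windows of Cnn1, Lmod1, Mylk and Smtn were in the table too and held no match, which says only that these letters are not in this stretch. Actg2, Myh11, Tagln and Myocd were not in it.

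All 9 genes could be tested in every comparison. Their 26 spots gave 702 readings, none on a saturated probe or under a raised local background, and 339 of them (48.3%) carried the scanner software's outlier mark and were kept. Over the spots of all genes the marked share was lower, at 0.343% to 16.1% per array with a median of 11%. It was 1.85% to 3.72% on the Keap1-/- arrays and 0.343% to 0.523% on the Nrf2-/- adult arrays. Per array the median Cy5 intensity was 81.8 to 226, and 58.9% to 69.3% of Cy5 spots were well above background. The 3 Keap1-/- arrays shared their slide and scan day with no other group, were read with the newer of 2 software versions, and had the lowest median Cy3 intensities (115 to 147, against 223 or more elsewhere). The 3 wild-type arrays at P7 also had a slide to themselves, though not a scan day. In every comparison with them slide and group cannot be told apart. Transcripts of Nrf2 (Nfe2l2) were at a mean log2 ratio of −0.26 in wild-type esophagi at P7, −3.89 in Nrf2-/- and −4.12 in Nrf2-/-Keap1-/- esophagi. Keap1 was at 0.65 ± 0.30 (SD, n = 3) in wild-type and 0.20 ± 0.45 in Keap1-/- esophagi, with overlapping arrays. In Nrf2-/-Keap1-/- esophagi it was at −0.34 ± 0.16, below every wild-type array, and where its probe lies relative to the deleted part was not checked. The arrays labelled E11.5 replicate 3 and E15.5 replicate 1 stood apart. Over 19603 genes, without those described here, the Pearson correlation of the first was 0.98 with both remaining arrays labelled E15.5 and 0.77 to 0.83 with those labelled E11.5. For the second it was 0.93 to 0.96 with E11.5 replicates 1 and 2, and 0.81 with its own group. Results on the 9 genes and their marker lists that rest on both are given with and without them, under the labels as deposited.

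Averaged over the 9 genes and with the labels as deposited, the level was highest in wild-type esophagi at P7, with a group mean of 3.22 and arrays from 3.05 to 3.44. It was 3.16 at P0, 3.09 in Nrf2-/- esophagi at P7, 2.89 at E15.5 and 2.75 in Nrf2-/-Keap1-/- esophagi. The lowest group means were 2.35 in Keap1-/- esophagi, 2.32 at E11.5, 2.32 in wild-type adult epithelium and 2.25 in Nrf2-/- adult epithelium. Replicates 1, 2 and 3 were at 2.19, 1.37 and 3.39 at E11.5, and at 2.02, 3.27 and 3.38 at E15.5. The places of these 2 groups in the order therefore rest on the 2 arrays that stood apart, E11.5 replicate 3 and E15.5 replicate 1. Neighbours in this order overlapped throughout, and the 3 Nrf2-/- adult arrays, all at 2.25, lay inside the wild-type adult range of 2.23 to 2.41.

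**Figure D1:**
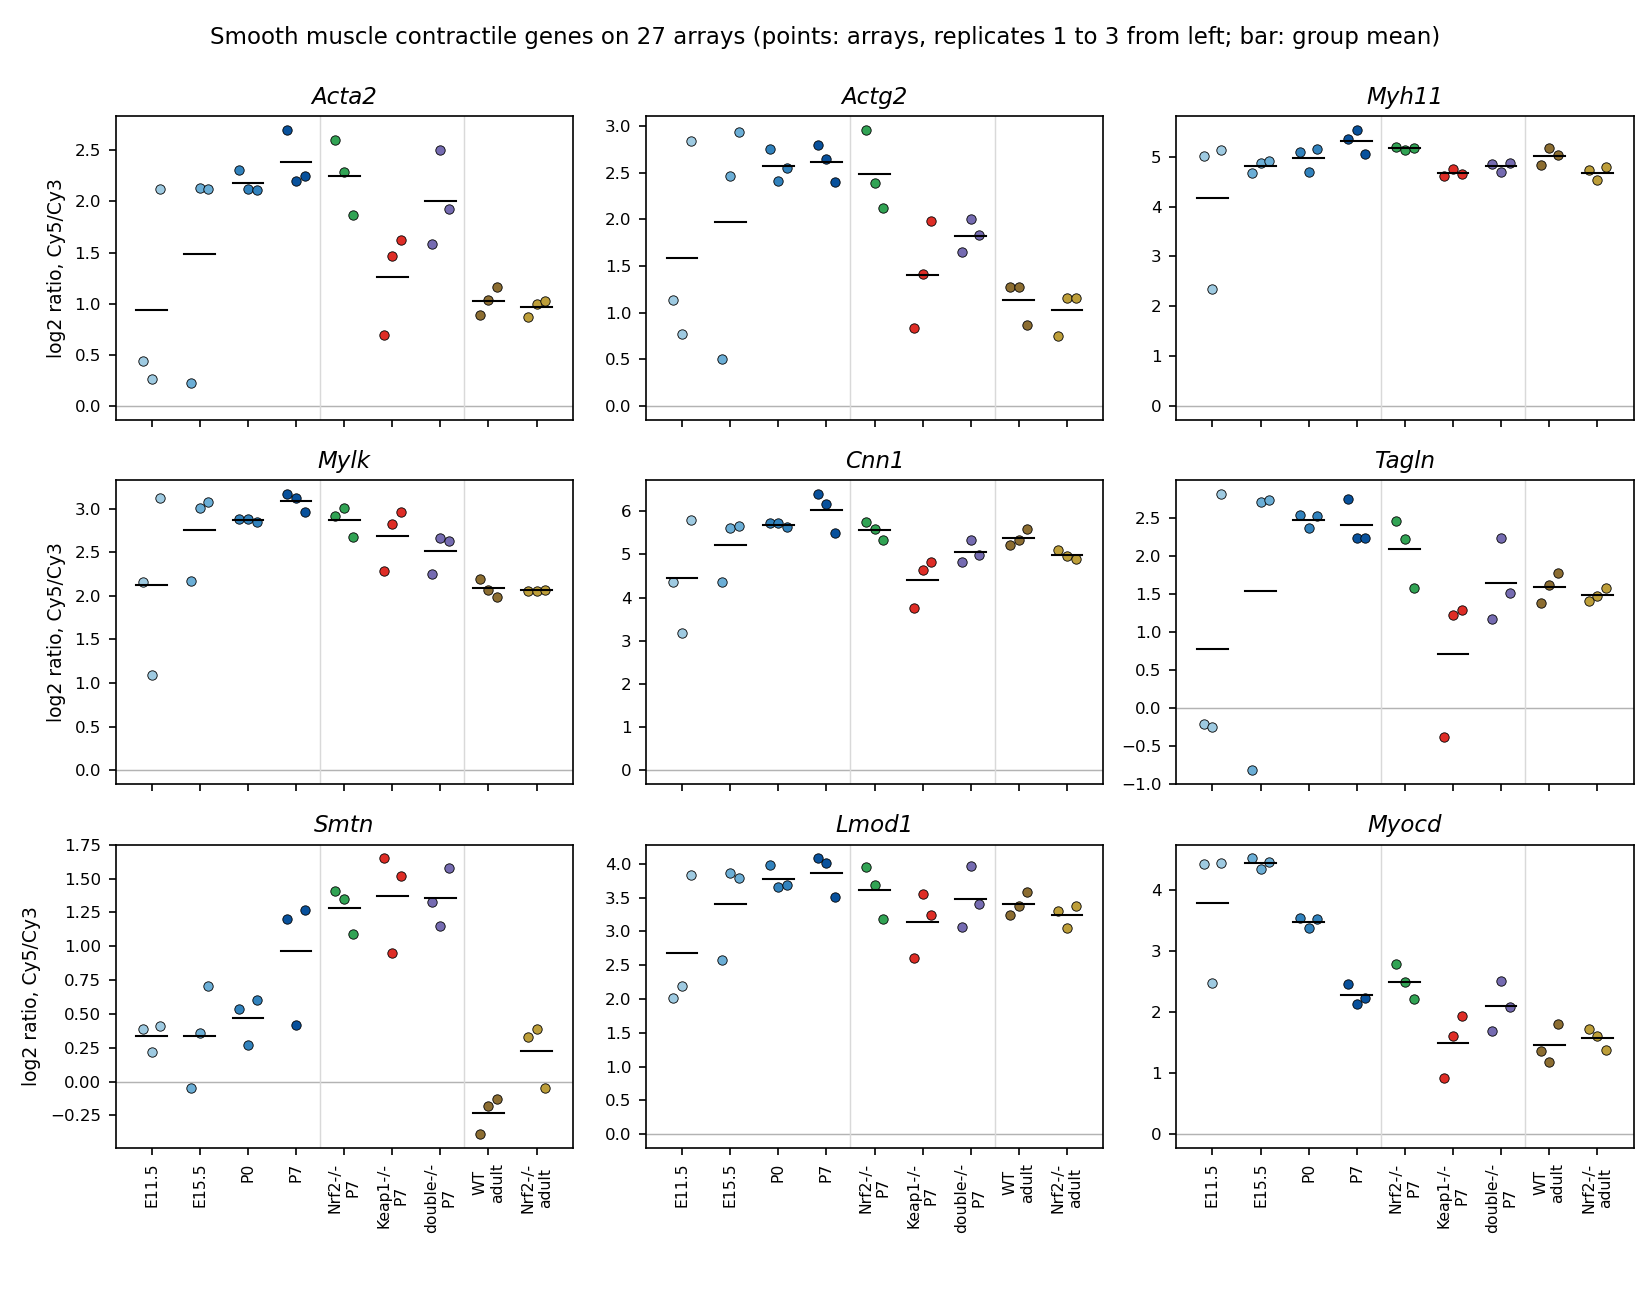
Log2 ratio of Cy5 to Cy3 (vertical axis) of the 9 smooth muscle contractile genes on 27 arrays, by group (horizontal axis). Points are arrays, in the order of replicates 1 to 3 from the left, bars are group means, and double-/- stands for Nrf2-/-Keap1-/-. For Cnn1 the Keap1-/- points (3.75 to 4.83) lie below the wild-type ones at P7 (5.49 to 6.40), and Myocd goes from 4.34 to 4.52 at E15.5 to 2.13 to 2.46 at P7.

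On the embryonic arrays the levels of most of these genes did not follow the labels. The log2 ratio of Tagln, which encodes the actin-binding protein transgelin, was −0.22, −0.26 and 2.81 on the arrays labelled E11.5 (replicates 1, 2 and 3) and −0.82, 2.71 and 2.73 on those labelled E15.5. That of Acta2, smooth muscle alpha actin, was 0.44, 0.26 and 2.12 at E11.5 and 0.22, 2.13 and 2.12 at E15.5. In both genes E11.5 replicate 3 sat with E15.5 replicates 2 and 3, and E15.5 replicate 1 sat with E11.5 replicates 1 and 2. Actg2, smooth muscle gamma actin, showed the same arrangement with 1.14, 0.77 and 2.84 at E11.5 and 0.50, 2.47 and 2.94 at E15.5. Lmod1, which encodes leiomodin, an actin nucleator of smooth muscle, was at 2.01, 2.20 and 3.84 and then at 2.57, 3.86 and 3.79. From P0 on the spread was small, with Acta2 at 2.31, 2.12 and 2.11 at P0 and at 2.70, 2.20 and 2.25 at P7.

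With the labels as deposited, limma called none of the 9 genes different from E11.5 to E15.5, at an adjusted p (Benjamini-Hochberg over all genes tested) of 0.05 or lower. None had an unadjusted p of 0.05 or lower either, and 0% of all 19709 genes were called, 322 of them at the unadjusted level. The median log2 change of the 9 genes was 0.66, from 0.00 (Smtn) to 0.76, beside −0.01 over all genes. Without the 2 arrays that stood apart, 6 of the 9 were called higher at E15.5, where 13.8% of 19373 genes were called and 8.95% called higher, and the median over the 9 was 1.72 beside −0.02. Tagln rose by 2.96 (SE 0.18, adjusted p = 1.98e-05), Acta2 by 1.78 (SE 0.18, adjusted p = 0.00022), Actg2 by 1.75 (adjusted p = 0.000706), Lmod1 by 1.72 (adjusted p = 0.000612), Cnn1 by 1.86 (adjusted p = 0.0104) and Mylk by 1.42 (adjusted p = 0.00925). Myh11 (1.22, adjusted p = 0.25), Myocd (0.94, adjusted p = 0.221) and Smtn (0.23, adjusted p = 0.63) were not called. Both arrays were set aside for their levels over all genes, so this separation is not independent of that choice. Without them no slide of the time course held arrays of more than 1 age, so age and slide cannot be told apart in that fit. In bulk RNA, fewer smooth muscle cells and less RNA per cell cannot be told apart, here and below.

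Mylk and the heavy chain Myh11 shared that arrangement in part. The log2 ratio of Mylk was 2.16, 1.09 and 3.13 at E11.5, and 2.17, 3.01 and 3.08 at E15.5. That of Myh11 was 5.02, 2.34 and 5.14 at E11.5, and 4.67, 4.88 and 4.92 at E15.5. In Myh11 a single array, E11.5 replicate 2, was low, and the other 5 arrays of both labels lay between 4.67 and 5.14. Cnn1, calponin, an actin-binding inhibitor of myosin's ATPase, was at 4.36, 3.19 and 5.79 and then at 4.37, 5.62 and 5.65. Smtn, which encodes the actin-associated smoothelin, was at 0.39, 0.22 and 0.41 and then at −0.05, 0.36 and 0.71, with no such split.

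**Figure D2:**
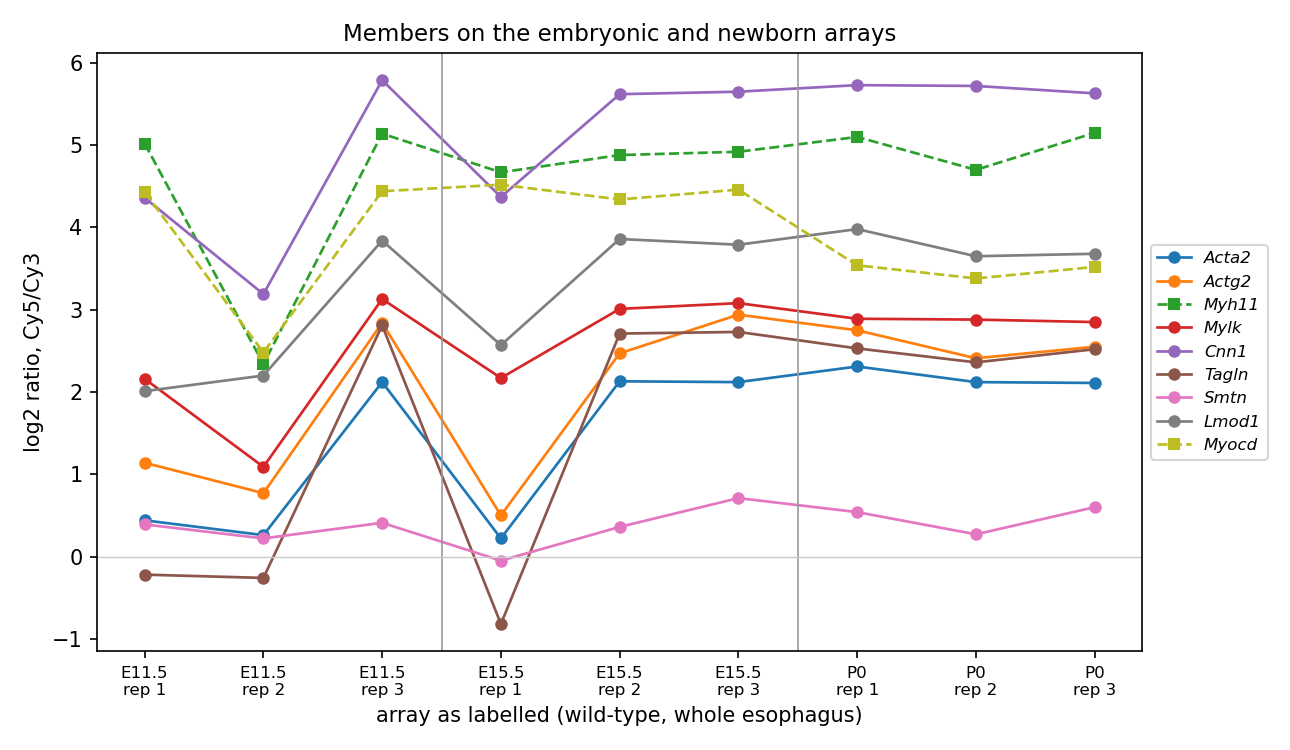
Log2 ratio of Cy5 to Cy3 of each of the 9 genes (1 line per gene) on the wild-type arrays labelled E11.5, E15.5 and P0, 3 each, in the order of their labels. Lines only join the points of a gene, and the dashed lines are Myh11 and Myocd. For Tagln the line is at −0.22 and −0.26 on E11.5 replicates 1 and 2, at 2.81 on E11.5 replicate 3, at −0.82 on E15.5 replicate 1 and at 2.71 on E15.5 replicate 2.

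Myocd moved the other way from E11.5 to P7, with its fall after E15.5. Its log2 ratio was 4.43, 2.48 and 4.44 at E11.5, 4.52, 4.34 and 4.46 at E15.5, 3.54, 3.38 and 3.52 at P0, and 2.46, 2.13 and 2.24 at P7. The 3 arrays at P0 lay below all arrays at E15.5, and those at P7 below all at P0. How many of all genes had ages that lay apart in this way was not counted. At E11.5, replicate 2 was far below the other arrays. It had the highest median Cy3 intensity (386), and its part in the value was not tested. From E11.5 to P7 the log2 change was −1.51 (SE 0.42, adjusted p = 0.0206), and Myocd was the 1 gene of the 9 called, where 30.2% of all genes were called and 13.3% called lower. It lost the call, at −1.18 to −1.49, without E11.5 replicate 1, E11.5 replicate 3, P7 replicate 2 or P7 replicate 3 (adjusted p = 0.0555 to 0.082), and without E11.5 replicate 2 the change was −2.16 (adjusted p = 1.07e-05). With the deposited ratios it was −0.36 (adjusted p = 0.68), and the call was lost in 10 of 20 alternatives in all, with values from −2.16 to −0.36. By single steps it was −0.96 (SE 0.42, adjusted p = 0.131) from E15.5 to P0 and −1.20 (SE 0.42, adjusted p = 0.204) from P0 to P7.

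The other 8 genes had log2 changes of 0.62 to 1.62 from E11.5 to P7 and none passed the test (adjusted p = 0.0567 to 0.235). Without E11.5 replicate 3, or without both arrays that stood apart, 6 of the 9 were called higher from E11.5 to P7. In the fit without both arrays these were Acta2, Actg2, Cnn1, Tagln, Lmod1 and Mylk, where 40.5% of genes were called and 21.6% called higher, and Myocd was then at −1.18 (adjusted p = 0.0554). From E15.5 to P0 limma called 0 of the 9 genes, where 19.7% of all genes were called. An unadjusted p of 0.05 or lower was found for 1 of the 9, beside 6657 of all 19709 genes. From P0 to P7 it called 0, where 2.43% were called, again with 1 at the unadjusted level, beside 2799 of all genes. Without both arrays it also called 0 in either step, where 19.5% and 5.58% of genes were called. Myocd was then at −0.92 (adjusted p = 0.176) and −1.20 (adjusted p = 0.118). The F-test over the 4 ages called Myocd alone (adjusted p = 0.0137), where 30% of all genes were called, 5 genes without E11.5 replicate 3, 2 without P7 replicate 2, and 7 without both arrays that stood apart, where 45.8% were called.

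Other genes of smooth muscle were called in both directions from E11.5 to P7, in shares no higher than about the 30.2% of all genes. Of 16 further filament and cytoskeleton genes, 4 rose and 1 fell (median log2 change 0.64, beside −0.01 over all genes). Synm, an intermediate filament protein (3.58, adjusted p = 0.0415), and Fhl1 (3.07, adjusted p = 0.0104) rose, while Des, desmin (2.67, adjusted p = 0.096), and Csrp1 (2.07, adjusted p = 0.102) were not called. Of 9 transcription factors and cofactors, 2 fell, the mesenchymal forkhead genes Foxf2 (−1.62, adjusted p = 0.00662) and Foxf1a (−1.52, adjusted p = 0.00173), and Srf itself was at 0.24 (adjusted p = 0.41). Of 16 tested genes of contraction signalling 2 rose and 0 fell, with a median of 0.25. Over the same interval 13 of 14 striated muscle genes rose, with a median of 3.19 and the fast myosin light chain Myl1 at 5.60 (adjusted p = 0.000433).

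Without the 2 arrays that stood apart, where 40.5% of all genes were called from E11.5 to P7, 11 of the 16 filament genes rose and 1 fell (median 1.13). Des (3.88, adjusted p = 5.19e-06) and Csrp1 (2.91, adjusted p = 5.52e-05) were then called, with Synm at 4.90 (adjusted p = 8.76e-07). Of the signalling genes 7 rose and 0 fell (median 0.60). Of the transcription factors Srf rose by 0.46 (adjusted p = 0.0246), and Foxf2 (−1.90, adjusted p = 3.11e-05) and Foxf1a (−1.47, adjusted p = 0.00104) fell. All 14 striated muscle genes rose (median 3.37). Several of the filament genes are used by both muscle types, and the part of striated muscle in their values was not tested.

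At P7, 6 of the 9 contractile genes were lower in Keap1-/- than in wild-type esophagi. The log2 ratio of Cnn1 was 6.40, 6.18 and 5.49 in wild-type and 3.75, 4.64 and 4.83 in Keap1-/- esophagi. That of Tagln was 2.74, 2.23 and 2.23 against −0.38, 1.22 and 1.29. For both genes the highest Keap1-/- array lay below the lowest wild-type one. Here and below, how many of all genes had groups that lay apart in this way was not counted. Limma called 6 genes lower and 0 higher, where 33.3% of all 19063 genes were called and 18% called lower. Tagln fell by 1.69 (SE 0.43, adjusted p = 0.0126) and Cnn1 fell by 1.62 (SE 0.29, adjusted p = 0.00204). The median log2 change over the 9 was −0.79, beside −0.02 over all genes.

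Both actins and the myosin heavy chain were among these 6. Actg2 was at 2.80, 2.65 and 2.40 in wild-type and 0.83, 1.41 and 1.98 in Keap1-/- esophagi, and it fell by 1.21 (SE 0.28, adjusted p = 0.00714). Acta2 was at 0.69, 1.47 and 1.62 in Keap1-/- esophagi and fell by 1.12 (SE 0.30, adjusted p = 0.0148). Myh11 was at 5.36, 5.54 and 5.05 in wild-type and at 4.61, 4.75 and 4.65 in Keap1-/- esophagi, a fall by 0.65 (SE 0.12, adjusted p = 0.00198). In none of the 3 genes did the groups overlap. The 5 Acta2 probes disagreed, and 1 of them was higher in Keap1-/- than in wild-type esophagi, with means of 1.94 and 1.55. Of the other 4, the largest differences were from 3.11 to 0.89 and from 3.98 to 2.21, and the smallest was from 0.64 to 0.19.

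Of the remaining genes, Myocd was called and 3 were not. Myocd was at 0.93, 1.61 and 1.93 in Keap1-/- esophagi and fell by 0.79 (SE 0.27, adjusted p = 0.0418). That call was lost in 11 of 18 alternatives, among them the deposited ratios (−0.49, adjusted p = 0.0745) and no background correction (−0.67, adjusted p = 0.0875), with values from −1.28 to −0.49. The brighter Myocd probe went from a mean of 3.96 to 2.67. The dimmer one went from 0.60 to 0.31 and was well above background on 1 of the 3 Keap1-/- arrays. Lmod1 was at 4.08, 4.01 and 3.51 in wild-type and 2.60, 3.55 and 3.25 in Keap1-/- esophagi, with groups that overlapped (−0.74, SE 0.30, adjusted p = 0.0808). It was called lower in 4 of 18 alternatives, among them the deposited ratios (−0.94, adjusted p = 0.0375). Mylk was at 3.17, 3.13 and 2.97 against 2.29, 2.83 and 2.96 (−0.40, SE 0.18, adjusted p = 0.108). It was called lower in 1 of 19 alternatives, scale normalization between arrays (−0.62, adjusted p = 0.0189). Of its 3 probes, 1 was near the background, at means of 0.15 and 0.09, and the others went from 4.58 to 4.02 and from 4.54 to 3.97. Smtn alone had the higher mean in Keap1-/- esophagi, with 1.20, 0.42 and 1.27 in wild-type and 1.65, 0.95 and 1.52 in Keap1-/- esophagi (0.41, SE 0.24, adjusted p = 0.219). Keap1-/- replicate 1 was the lowest of its group in 8 of the 9 genes, all but Smtn. Without it Tagln was at −1.14 (adjusted p = 0.0216) and Myocd at −0.51 (adjusted p = 0.129). Leaving out single arrays gave 4 to 6 calls, with Acta2 and Myocd lost without wild-type replicate 1 (−0.96, adjusted p = 0.0551, and −0.70, adjusted p = 0.118). Myocd was also lost without wild-type replicate 2 (−0.86, adjusted p = 0.0547), wild-type replicate 3 (−0.81, adjusted p = 0.0814) or Keap1-/- replicate 2 (−0.85, adjusted p = 0.0743). With arrays centred on their median in place of loess, which moved the median of all genes by 0.13, only Cnn1 (−1.08) and Myocd (−0.71) were called lower, and Smtn was called higher (0.83, adjusted p = 0.0213). Because the Keap1-/- arrays had a slide and scan day to themselves, genotype and scan cannot be told apart.

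Of the genes around the contractile apparatus some were called too, beside 33.3% of all genes called and 18% called lower. Of the 16 further filament genes 5 fell and 1 rose (median −0.50). Myl9, the light chain that Mylk phosphorylates, fell by 1.12 (adjusted p = 0.00935), and caldesmon (Cald1) fell by 0.82 (adjusted p = 0.0293), whereas Des rose by 0.76 (adjusted p = 0.0121). Of the contraction signalling genes 6 fell and 1 rose (median −0.40), among them the calcium channel of the sarcoplasmic reticulum Itpr1 (−1.12, adjusted p = 0.000296) and the potassium channel Kcnma1 (−0.77, adjusted p = 0.025). Of the transcription factors 4 fell and 1 rose (median −0.49). Foxf2 was at −1.50 (adjusted p = 0.00388), Barx1 at −1.47 (adjusted p = 0.0343), Tcf21 at −1.37 (adjusted p = 0.000144) and Nkx2-3 at 0.72 (adjusted p = 0.0234).

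Markers of other cells were called in Keap1-/- esophagi too, beside the 33.3% called over all genes. Of 8 fibroblast and mesenchyme genes 6 fell and 0 rose, with a median log2 change of −1.17. Lum fell by 2.69 (adjusted p = 0.000277), Postn fell by 2.14 (adjusted p = 1.61e-05) and Col1a1 fell by 1.59 (adjusted p = 0.000149). The mean level of this list was 2.39 to 2.68 on the wild-type arrays and 1.18 to 1.67 on the Keap1-/- arrays. Of 14 striated muscle genes 4 rose and 1 fell, with a median of 0.34 and list means of 3.72 to 4.53 and 4.36 to 4.81. Of 8 squamous epithelium genes 1 rose and 2 fell (median −0.14), and of 11 vessel genes 2 rose and 1 fell (median 0.01). The called shares of these 3 lists were near that of all genes. Of 4 interstitial cell genes 1 rose and 2 fell (median −0.58). Of 4 tested airway genes 2 rose and 0 fell, and of 6 tested enteric neuron and glia genes 1 rose and 0 fell. Within the Keap1-/- group, replicate 1 had the lowest mean of the contractile genes (1.89) and the highest mean of the fibroblast list (1.67). Whether the share of mesenchyme in the dissected tissue had a part in the contractile genes' values was not tested.

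**Figure D3:**
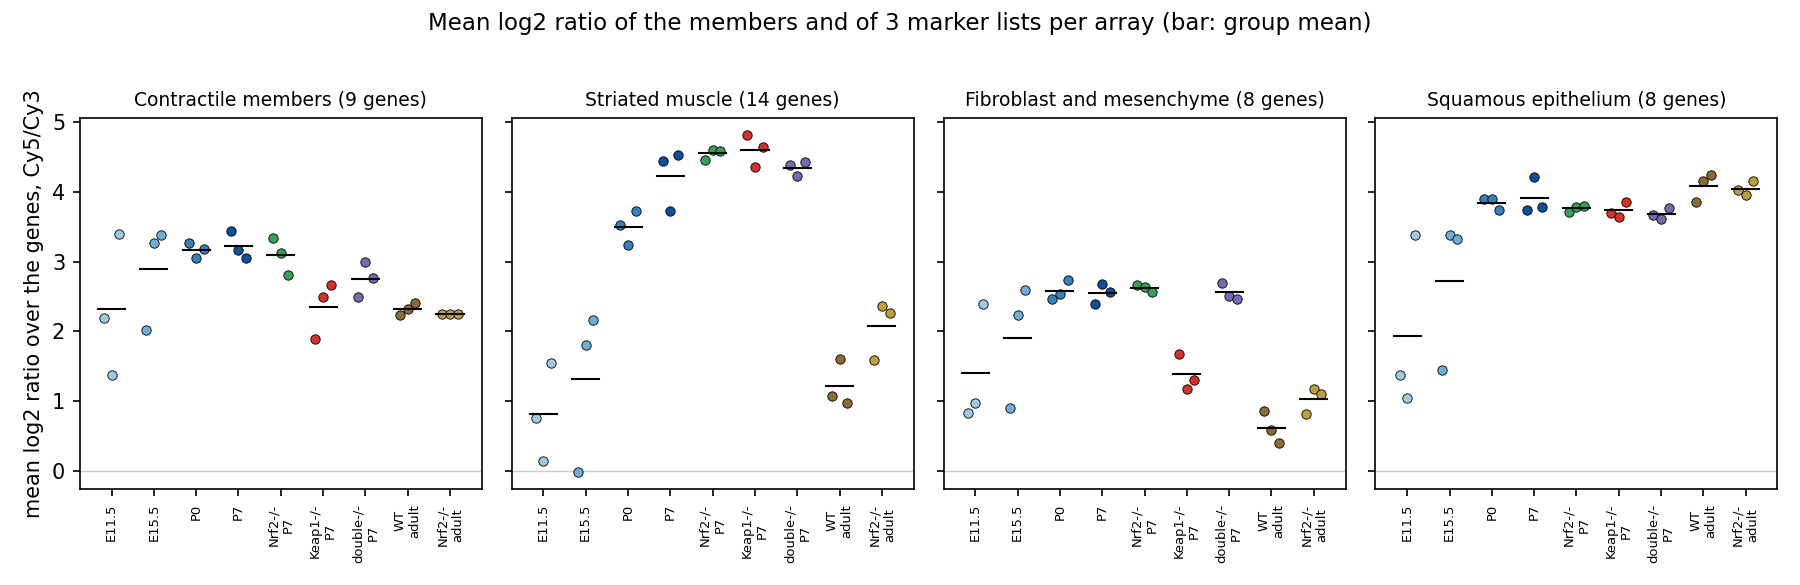
Mean log2 ratio of Cy5 to Cy3 over the 9 contractile genes and over the striated muscle, fibroblast and mesenchyme, and squamous epithelium lists (1 panel each), per array and group. Points are arrays, bars are group means, and double-/- stands for Nrf2-/-Keap1-/-; the fibroblast list averaged 2.55 in wild-type and 1.39 in Keap1-/- esophagi at P7, and the striated muscle list 4.23 and 4.60.

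Esophagi that lacked Nrf2 as well as Keap1 had levels between those groups. For 8 of the 9 genes, all but Mylk, the Nrf2-/-Keap1-/- mean lay between the wild-type and the Keap1-/- mean. Cnn1 was at 4.83, 5.33 and 4.99, Tagln at 1.17, 2.23 and 1.51, and Acta2 at 1.58, 2.50 and 1.93 in Nrf2-/-Keap1-/- esophagi. Against wild-type, limma called 0 of the 9 genes, where 0.43% of all genes were called. An unadjusted p of 0.05 or lower was found for 4 of the 9, beside 3320 of all 19063 genes. These 4 were Cnn1 (−0.97, adjusted p = 0.139), Actg2 (−0.79, adjusted p = 0.177), Mylk (−0.58, adjusted p = 0.142) and Myh11 (−0.51, adjusted p = 0.082). In each of them the 3 Nrf2-/-Keap1-/- arrays lay below the 3 wild-type arrays, and how many of all genes did so was not counted. Without wild-type replicate 3, Myh11 was called (−0.64, adjusted p = 0.0249). The median over the 9 was −0.51, beside 0.00 over all genes.

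Against Keap1-/- esophagi, limma called 0 of the 9 genes in Nrf2-/-Keap1-/- esophagi, although 33.3% of all genes were called. An unadjusted p of 0.05 or lower was found for 2 of the 9, beside 8343 of all 19063 genes. Acta2 was higher by 0.74 (adjusted p = 0.0775), Tagln by 0.93 (adjusted p = 0.124), Cnn1 by 0.65 (adjusted p = 0.116) and Myocd by 0.61 (adjusted p = 0.104), none of which passed the test. The comparisons of Keap1-/- and of Nrf2-/-Keap1-/- with wild-type share the wild-type arrays, and this comparison shares the Keap1-/- arrays with the first of them. The Keap1-/- arrays shared no slide, scan day or software version with the Nrf2-/-Keap1-/- arrays. Genotype and scan cannot be told apart here either. Against Keap1-/- esophagi 6 of 8 fibroblast genes were higher and 0 lower (median 1.28), and against wild-type 0 of the 8 were called (median −0.03). Of the other smooth muscle lists, 4 filament genes were higher and 1 lower than in Keap1-/- esophagi (median 0.21), 6 signalling genes higher and 1 lower (median 0.40), and 1 transcription factor higher and 1 lower (median 0.23). Of the striated muscle genes 3 were lower and 0 higher (median −0.22). None of these filament, signalling, transcription factor or striated muscle genes was called against wild-type. Nrf2-/-Keap1-/- replicate 1 shared a slide with all 3 Nrf2-/- arrays, and on that slide it was lower than their mean in 8 of the 9 genes (median −0.67, from −0.91 to 0.05). This rests on 1 array, which had the lowest mean over the 9 genes in its group (2.49, against 3.00 and 2.76).

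In Nrf2-/- esophagi at P7 no difference from wild-type passed the test. Acta2 was at 2.60, 2.29 and 1.87, Cnn1 at 5.75, 5.60 and 5.33, and Smtn at 1.41, 1.35 and 1.09 in Nrf2-/- esophagi. Limma called 0 of the 9 genes against wild-type (lowest adjusted p = 0.585), where 0.0157% of all genes were called. At an unadjusted p of 0.05 there were 0 of the 9, beside 2040 of all 19063 genes. The log2 changes ran from −0.46 (Cnn1) to 0.32 (Smtn), with a median of −0.15.

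**Figure D4:**
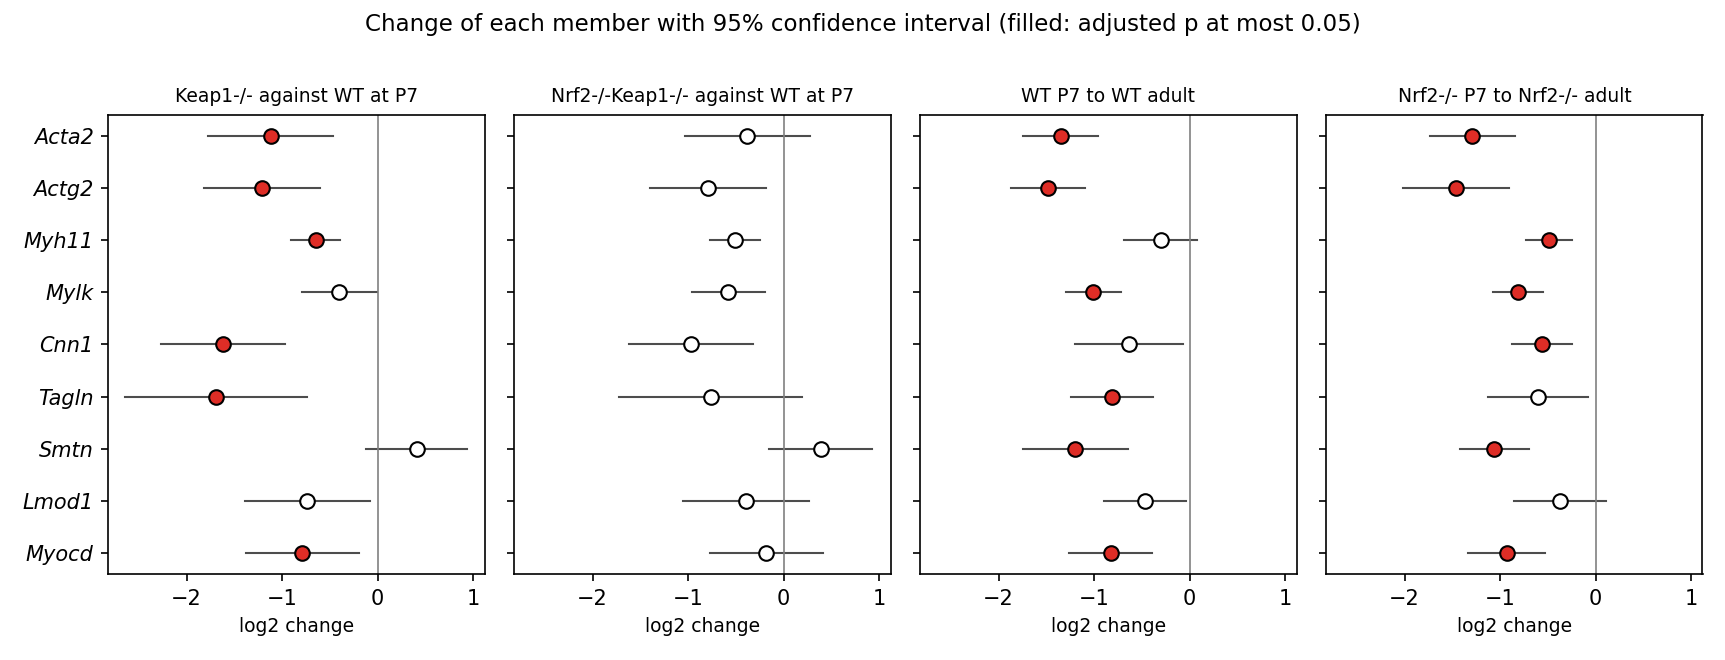
Log2 change (horizontal axis) of each of the 9 genes (vertical axis) in 4 comparisons, 1 panel each, with its 95% confidence interval. Filled points have an adjusted p of 0.05 or lower, which are 6 genes in Keap1-/- esophagi, 0 in Nrf2-/-Keap1-/- esophagi, and 6 and 7 genes from P7 to adult in wild-type and Nrf2-/- mice.

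From the whole esophagus at P7 to the adult epithelium, 6 of the 9 genes fell in wild-type mice, where 43% of all 17999 genes were called and 23% called lower. Actg2 was at 1.28, 1.27 and 0.87 in wild-type adult epithelium and fell by 1.48 (SE 0.17, adjusted p = 0.000519). Acta2 was at 0.89, 1.04 and 1.16 and fell by 1.35 (SE 0.17, adjusted p = 0.00074). Mylk was at 2.20, 2.07 and 1.99 and fell by 1.01 (SE 0.12, adjusted p = 0.000681). For all 3 the adult arrays lay below every P7 array. Smtn was at −0.39, −0.18 and −0.13 and fell by 1.20 (SE 0.23, adjusted p = 0.00548). Myocd was at 1.37, 1.19 and 1.81 and fell by 0.82 (SE 0.19, adjusted p = 0.0104), and Tagln was at 1.38, 1.62 and 1.77 and fell by 0.81 (SE 0.18, adjusted p = 0.0105). The dimmer Myocd probe was well above background on 1 wild-type and 0 Nrf2-/- adult arrays. With arrays centred on their median, Tagln was at −0.37 (adjusted p = 0.482) and Smtn at −0.99 (adjusted p = 0.101), and with all 27 arrays in 1 fit Tagln (adjusted p = 0.417) and Myocd (adjusted p = 0.071) lost their calls. Age and dissected tissue change together in this comparison and cannot be told apart.

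Myh11, Cnn1 and Lmod1 were not called between P7 and adult. Myh11 was at 4.83, 5.18 and 5.04 (−0.30, SE 0.17, adjusted p = 0.18), Cnn1 at 5.23, 5.33 and 5.60 (−0.63, SE 0.24, adjusted p = 0.0685) and Lmod1 at 3.24, 3.37 and 3.59 (−0.47, SE 0.18, adjusted p = 0.0778), each with adult arrays that overlapped those at P7. Without wild-type P7 replicate 3, Cnn1 (−0.90, adjusted p = 0.00852) and Lmod1 (−0.65, adjusted p = 0.022) were called. All 9 genes had a probe well above background on every adult array, so samples labelled as epithelium held RNA of contractile genes. On wild-type arrays 8 of 8 fibroblast genes fell (median −1.84), as did 13 of 14 striated muscle genes (median −2.71, with Myl1 at −5.64, adjusted p = 0.000175) and 8 of 11 vessel genes (median −0.86, with 1 higher). So did 6 of 6 tested enteric neuron and glia genes (median −1.81), beside 23% of all genes called lower. Of 4 interstitial cell genes 2 fell and 1 rose, and of 2 tested airway genes 2 rose. The squamous epithelium list was at 3.85 to 4.24 per adult array, with 2 of its 8 genes higher and 1 lower, beside 43% of all genes called. The median over the 9 contractile genes was −0.82, beside 0.01 over all genes, and the part of the other cell types in it was not tested. Within the slide that held wild-type adult replicates 1 and 2 with Nrf2-/-Keap1-/- replicates 2 and 3, the adult arrays were lower in 7 of the 9 genes (median −0.51, from −1.65 to 0.22).

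Other genes of smooth muscle were called over the same interval, beside 23% of all genes called lower. Of 16 filament genes 14 fell and 0 rose (median −1.01), led by tropomyosin 1 (Tpm1, −2.69, adjusted p = 0.00159) and Fhl1 (−2.35, adjusted p = 0.00247), both of which striated muscle also expresses. Of 15 tested signalling genes 8 fell and 0 rose (median −0.61), with the guanylate cyclase subunits Gucy1b3 (−2.29, adjusted p = 0.0031) and Gucy1a3 (−1.88, adjusted p = 0.000587) lowest. Of 9 transcription factors 7 fell and 1 rose (median −1.09), with Tcf21 at −2.34 (adjusted p = 0.000289) and Barx1, well above background on 2 of the 3 adult arrays, at −1.59 (adjusted p = 0.0167).

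Nrf2-/- mice showed the same interval with 7 of the 9 genes lower, where 56.7% of all 18750 genes were called and 28.6% called lower. Actg2 was at 2.96, 2.39 and 2.12 at P7 and at 0.75, 1.16 and 1.16 in adult epithelium, and it fell by 1.46 (adjusted p = 0.00177). Acta2 was at 0.87, 1.00 and 1.03 in adult epithelium and fell by 1.29 (adjusted p = 0.00114). Smtn fell by 1.06 (adjusted p = 0.00113), Myocd fell by 0.93 (adjusted p = 0.0034) and Mylk fell by 0.81 (adjusted p = 0.000839). Myh11 was at 5.20, 5.13 and 5.18 at P7 and at 4.73, 4.53 and 4.79 in adult epithelium, a fall by 0.49 (adjusted p = 0.00593), and Cnn1 fell by 0.56 (adjusted p = 0.0101). With arrays centred on their median in place of loess, which moved the median of all genes by 0.29, Myh11 (0.39, adjusted p = 0.00967) and Cnn1 (0.47, adjusted p = 0.00796) were called higher instead. In that setting Actg2 (−0.56, adjusted p = 0.0758), Smtn (−0.29, adjusted p = 0.166) and Mylk (−0.29, adjusted p = 0.0525) lost their calls. Tagln (−0.60, adjusted p = 0.0513) and Lmod1 (−0.37, adjusted p = 0.161) were not called, and without Nrf2-/- P7 replicate 3 both were (−0.85, adjusted p = 0.00191, and −0.58, adjusted p = 0.0176). In these mice age, tissue, scan day and software version all changed together and cannot be told apart.

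The change from P7 to adult was not found to differ between the genotypes. The difference of the changes (Nrf2-/- minus wild-type) ran from −0.19 to 0.20 over the 9 genes. Of these 0 were called, with a lowest adjusted p of 0.659, where 0.098% of all genes were called. At an unadjusted p of 0.05 there were 0 of the 9, beside 2185 of all 19389 genes. In adult epithelium itself limma called 0 of the 9 genes between Nrf2-/- and wild-type mice, where 0.499% of all genes were called. An unadjusted p of 0.05 or lower was found for 3 of the 9, beside 3044 of all 18043 genes. Smtn was at 0.33, 0.39 and −0.05 in Nrf2-/- epithelium (0.46, adjusted p = 0.212), Cnn1 at 5.11, 4.97 and 4.90 (−0.39, adjusted p = 0.223) and Myh11 at 4.73, 4.53 and 4.79 (−0.33, adjusted p = 0.281). In these 3 genes the genotypes did not overlap, which was not counted over all genes. The directions of Cnn1 and Myh11 turned with median centring (0.35 and 0.40), which moved the median of all genes by 0.38. Wild-type adult replicates 1 and 2 had an earlier scan day and the older software version. All Nrf2-/- adult arrays had the newer version, and only wild-type adult replicate 3 shared that version and a scan day with any of them. Genotype therefore largely changed together with scan day and software version, and their parts were not tested.

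Across the 27 arrays, most of the 9 genes varied together. The Pearson correlation of each gene with the mean of the other 8 was 0.93 for Actg2, 0.92 for Acta2, 0.90 for Mylk, 0.83 for Cnn1, 0.83 for Tagln and 0.82 for Lmod1. It was 0.59 for Myh11, 0.21 for Myocd and 0.21 for Smtn. Without the 6 embryonic arrays, that of Myocd was 0.79 and that of Smtn 0.16. These arrays share the reference RNA and the groups of the study, so the values describe the pattern over groups as much as over single esophagi.

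Within groups Myh11 and Smtn, and not Myocd, stood apart. On the 21 arrays from P0 on, deviations from the group means correlated at a median r of 0.79 (0.58 to 0.96) over the 21 pairs of Acta2, Actg2, Cnn1, Tagln, Lmod1, Myocd and Mylk, with Acta2 and Tagln closest. The 7 pairs of Myh11 with these genes had a median of 0.11 (−0.06 to 0.31) and the 8 pairs with Smtn a median of −0.17 (−0.31 to 0.11). Genes measured on 1 array share its RNA, hybridization and normalization, and the part of these in the correlation was not tested. Within these groups the SD of Myh11 was 0.03 to 0.25 and that of Tagln 0.09 to 0.94. The SD of Tagln was largest in Keap1-/- esophagi, where replicate 1 was at −0.38 and the others at 1.22 and 1.29. The part of small spreads and of single arrays in these correlations was not tested either.

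Searching 20726 other genes for the pattern of the 9 over the 27 arrays, the highest Pearson correlation with their gene-centred mean was that of Nacad (r = 0.949). Myl9, a light chain of smooth muscle myosin, followed at 0.935, the secreted matrix protein Sparcl1 at 0.925 and the creatine kinase Ckb at 0.925. The other 2 of the nearest 6 were probes with no gene symbol (r = 0.929 and 0.919).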

How the data were processed

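RNA of 27 mouse esophagus samples was measured on Agilent 2-colour arrays, 3 in each of 9 groups. The scanner files deposited by the authors hold, for every spot and both colours, its mean intensity and its median local background, made with Feature Extraction (version 9.1 in the submitters' processing notes). The ratios deposited by the authors are log10 of Cy5 over Cy3, and 100% of them equalled the log ratio of that software within 0.005.

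Mean intensities were background-corrected by normexp (offset 50) and loess-normalized within each array, and log2 ratios were computed from these deposited intensities. Spots marked as outliers were kept. Where the local background exceeded 5 times the array median, the spot was left out. Log2 values were averaged over the spots of a probe and then over a gene's probes, and missing probe values were filled additively. A gene entered a test with 2 values in every group and, on 3 or more of the fitted arrays, a Cy5 signal well above background. Genes carry the name in the scanner files, and 9421 probes (22.9%) had names that differ between annotation versions. The number of arrays limits the precision.

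Comparisons were made with limma 3.58.1 in R 4.3.3 (with statmod 1.5.0 and the data.table package, version 1.17.8), which replaced the SAM test of the study's methods. The time course, the P7 genotypes and the 2 ages in both genotypes were fits of 12 arrays, and the others of 6. P-values are Benjamini-Hochberg adjusted over all genes tested, and they measure the spread between individual samples. The fit was tested on simulated data. All 9 genes are named, with up to 4 genes of each marker list by size of change, the 6 genes most like them and the targeted genes. The genes, lists and tests were chosen with earlier results of these data known. The lists were further smooth muscle filament, signalling and transcription factor genes, and markers of striated muscle, vessels, interstitial cells, fibroblasts, enteric neurons, squamous epithelium and airway. Replicate numbers did not pair the samples, since deviations of same-numbered arrays correlated at −0.45 to 0.64. Alternatives were other background corrections and normalizations, the deposited ratios, outlier-marked spots left out, other probe filters, the brightest probe, replicate, slide or scan as a block, all 27 arrays in 1 fit, a 2-fold minimum and each array left out.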

Additional observations from a re-analysis of the deposited data

How the results depend on the processing

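Changes of single contractile genes in a chosen part of the comparisons were tallied under the alternatives. Of the resulting values, 824 kept their direction and their side of the threshold, 39 lost the call, 54 gained one and 7 turned. Genes of the marker lists were not in this tally. Nor were single contractile genes from E11.5 to E15.5, or in Nrf2-/- against wild-type esophagi at P7. The calls of members from E11.5 to P7 (1 as reported) were 0 with each spot's own local background, median centring or the brightest probe. Of all 19709 genes 4204, 5627 and 5909 were called there. The count was 2 of 4 testable genes (1 higher, 1 lower) with outlier-marked spots left out, where 4286 of all 16629 were called. It was 4 with scale normalization (6273 of all 19709 called), 7 with all 27 arrays in 1 fit and 6 without the 2 arrays that stood apart. With the deposited ratios it stayed at 1, but Acta2 was called higher (2.03, adjusted p = 0.0434) and Myocd lost its call. The F-test over the ages (1 as reported) gave 0 with the own local background, the deposited ratios, Feature Extraction's processed signals, median centring or the brightest probe. In these settings it called 3674 to 5894 of all 19709 genes. It gave 7 without the 2 arrays that stood apart, whose absence also gave 6 from E11.5 to E15.5. In Keap1-/- esophagi (6) the count was 3 with median centring, where 8083 of all 19063 genes were called. It was 2 of 4 testable genes with outlier-marked spots left out, where 4801 of all 16199 were called. With all arrays in 1 fit it was 1 (Cnn1), and Cnn1 was called under all 18 alternatives that could test it. Lmod1 and Mylk gained calls with scale normalization, where 6332 of all 19063 genes were called. In Nrf2-/-Keap1-/- esophagi 1 was called against wild-type with scale normalization (108 of all 19063 genes called) or with slide as a random block. Against Keap1-/- it was 1 with median centring (6300 of all 19063 genes called) or with slide as a random block. From P7 to adult in Nrf2-/- mice the count was 4 with median centring (2 higher, 2 lower), where 12371 of all 18750 genes were called. It was 3 with a 2-fold minimum. In wild-type mice Myh11, Cnn1 and Lmod1 gained calls over this interval with scale normalization, where 7374 of all 17999 genes were called. The count was 1 between adult genotypes with scale normalization (134 of all 18043 genes called). From E15.5 to P0 it was 1 of 4 testable genes with outlier-marked spots left out (2658 of all 16629 called). The share over all genes is not given for all 27 arrays in 1 fit, replicate or slide as a block, or a 2-fold minimum. Nor is it given for the fits without single arrays. Where values turned, Myh11 in adult Nrf2-/- against wild-type epithelium was at 0.43 with the own local background and 0.40 with median centring, Cnn1 there at 0.35 with median centring, and Myh11, Cnn1, Tagln and Lmod1 from P7 to adult in Nrf2-/- mice at 0.39, 0.47, 0.45 and 0.43 with median centring. The causes were not tested. Median centring also moved the share of higher genes among all calls from 57.3% to 40.7% (E15.5 to P0), from 55.8% to 36.4% (E11.5 to P7), from 46.1% to 65.9% (Keap1-/-) and from 49.5% to 70.9% (P7 to adult in Nrf2-/- mice).

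With the replicate number as a block, 2 genes were called from E11.5 to P7 and 5 in Keap1-/- esophagi, where Myocd lost its call (adjusted p = 0.061), and no other count changed. Leaving out single arrays gave 0 to 6 calls from E11.5 to P7 (0 without E11.5 replicate 1 or P7 replicate 3, and 6 without E11.5 replicate 3), 1 to 5 by the F-test (5 without E11.5 replicate 3), 4 to 6 in Keap1-/- esophagi, 0 to 1 in Nrf2-/-Keap1-/- esophagi against wild-type, and 6 to 8 and 7 to 9 from P7 to adult in wild-type and Nrf2-/- mice. The other counts were 0 in all these fits.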
